A study of Mus musculus with 16 samples.

Results

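The γ-secretase complex and the sheddases that cut ahead of it were examined at the mRNA level in macrophages treated with a γ-secretase inhibitor (GSI). The set was fixed by gene symbol and holds 8 of the 47069 genes in the count table. It comprises 6 genes of the complex (Psen2, Ncstn, Aph1a, Aph1b, Aph1c and Psenen) and the 2 sheddase genes Adam10 and Adam17. All 8 genes were counted in every library and passed the filter on low counts. Other genes of the pathway are given only as lists.

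Bone marrow-derived macrophages (BMMs) were grown from C57BL/6 mice of 8 to 10 weeks in medium conditioned by L929 cells. In every library the cells had been primed overnight with 10 ng/mL IFNγ and then activated for 1 hr with 100 ng/mL LPS and immune complexes of IgG-opsonized ovalbumin (LPS/ICs). The 2 groups differed in the addition of 25 μM DAPT (the GSI group) or of its vehicle, 0.01% DMSO, and each had 2 replicates. No unactivated or unprimed cells were part of the comparison, so each difference refers to the drug in activated cells. The methods describe overnight addition of the GSI before activation, whereas a shorter pretreatment is given for other experiments, so the time under drug at harvest is not certain. The labels do not say whether the replicates came from separate mice or cultures. The p-values therefore measure the spread between these samples, which may be technical, and each SD comes from a single pair of libraries.

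γ-Secretase is a protease embedded in the membrane that cuts the stubs of type I membrane proteins within the lipid bilayer. A presenilin carries the 2 catalytic aspartates, nicastrin (Ncstn) is the large glycoprotein that limits access of substrates, an APH-1 protein is the scaffold on which the complex is assembled, and PEN-2 (Psenen) is needed for the presenilin to be cut into its active form. The complex acts only after the bulk of the ectodomain has been removed, a step done for Notch receptors mainly by ADAM10. ADAM17, first known as the TNFα-converting enzyme, releases TNFα and many receptors from the surface of macrophages. DAPT blocks the cleavage of γ-secretase substrates in general and is not specific for Notch.

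The 4 libraries held 42694655 and 56932059 counts for DMSO and 48483661 and 49511733 for the GSI. The floor of 3 counts lay between 0.0527 and 0.0703 CPM (a gene's reads after scaling for library size), which covers counting error only, and every gene of the set lay far above it. The 8 macrophage markers summed to 12278 to 12485 CPM with DMSO and 9489 to 10414 CPM with the GSI, and 6 of them were lower and 1 higher at a false discovery rate (FDR) under 0.05, beside 21.9% of all tested genes lower and 19.0% higher. Of these markers Mertk and Csf1r are also in the substrate lists used further on. Marker lists of the other cell types each summed to at most 5.25 CPM in every library. The part of the shift in macrophage markers in the results was not tested. In bulk RNA, fewer cells of a type and less RNA per cell cannot be told apart.

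Aph1b and Aph1c lie 19503 bases apart on chromosome 9 and are near copies of each other, so how well reads can be assigned to one or the other depends on where they fall. The coding sequences (771 and 774 bases) were 96.2% identical, with 29 differing bases and 3 bases in a gap. Within the coding sequence the differences were concentrated at the 5′ end: 14 of them lay in coding exon 1, 9 in exon 2, 3 in exon 3 and 3 in exon 6, and exons 4 and 5 were identical. The 2 versions of coding exons 1 and 2 and the shared exon 4 are shown as examples of coding stretches that differ and of one that does not. They are given 5′ to 3′ on the minus strand from GENCODE M21 on GRCm38, with the bases that differ between the paralogs in capitals.
Aph1b coding exon 1 (chr9:66795253-66795365): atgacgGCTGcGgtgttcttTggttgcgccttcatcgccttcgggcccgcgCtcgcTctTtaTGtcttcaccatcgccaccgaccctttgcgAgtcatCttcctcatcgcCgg
Aph1c coding exon 1 (chr9:66834486-66834598): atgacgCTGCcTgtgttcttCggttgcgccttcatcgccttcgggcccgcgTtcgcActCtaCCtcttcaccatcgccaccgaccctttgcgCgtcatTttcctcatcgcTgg
Aph1b coding exon 2 (chr9:66794070-66794240): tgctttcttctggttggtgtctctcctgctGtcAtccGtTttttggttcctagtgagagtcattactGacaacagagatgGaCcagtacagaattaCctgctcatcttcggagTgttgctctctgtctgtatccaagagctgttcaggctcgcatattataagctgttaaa
Aph1c coding exon 2 (chr9:66833159-66833329): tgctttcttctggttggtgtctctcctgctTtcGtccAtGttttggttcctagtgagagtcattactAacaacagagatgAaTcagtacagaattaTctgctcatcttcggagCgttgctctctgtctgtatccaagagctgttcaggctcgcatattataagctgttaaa
Coding exon 4 of both (Aph1b, chr9:66789646-66789768; Aph1c, chr9:66827737-66827859): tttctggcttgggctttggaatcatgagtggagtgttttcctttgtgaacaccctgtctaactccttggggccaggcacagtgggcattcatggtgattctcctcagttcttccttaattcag
The longest coding transcripts as a whole (4910 and 5205 bases) were less alike, with 76.3% identity and 1130 differing bases, so most of the differing bases lay outside the coding sequence. Over these transcripts, 13.6% of the windows of 75 bases in Aph1b and 12.8% of those in Aph1c also occurred in the other gene. The read length and the treatment of reads with several positions are not given in the sources used here, so the split of counts between Aph1b and Aph1c is uncertain. Aph1a was much further from both, with coding identities of 64.0% to Aph1b and 62.4% to Aph1c. Its counts have a limit of another kind, since 23.7% of its windows of 75 bases also occurred in Gm15429, which had 23, 37, 13 and 24 counts.

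Of the 8 genes, 4 passed an FDR of 0.05 in edgeR's quasi-likelihood test, beside 40.8% of the 13211 genes tested. Adam10 and Aph1b were lower with the GSI, against 21.9% of all tested genes, and Psen2 and Aph1c were higher, against 19.0%. The share of the set that changed was thus near that of the transcriptome, and the members moved in both directions, with a median log2 fold change of -0.02 beside 0.01 over all genes. The GSI and DMSO libraries did not overlap for 5 of the 8 genes (62.5%), which is below the 70.6% seen over all genes tested.

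**Figure D1:**
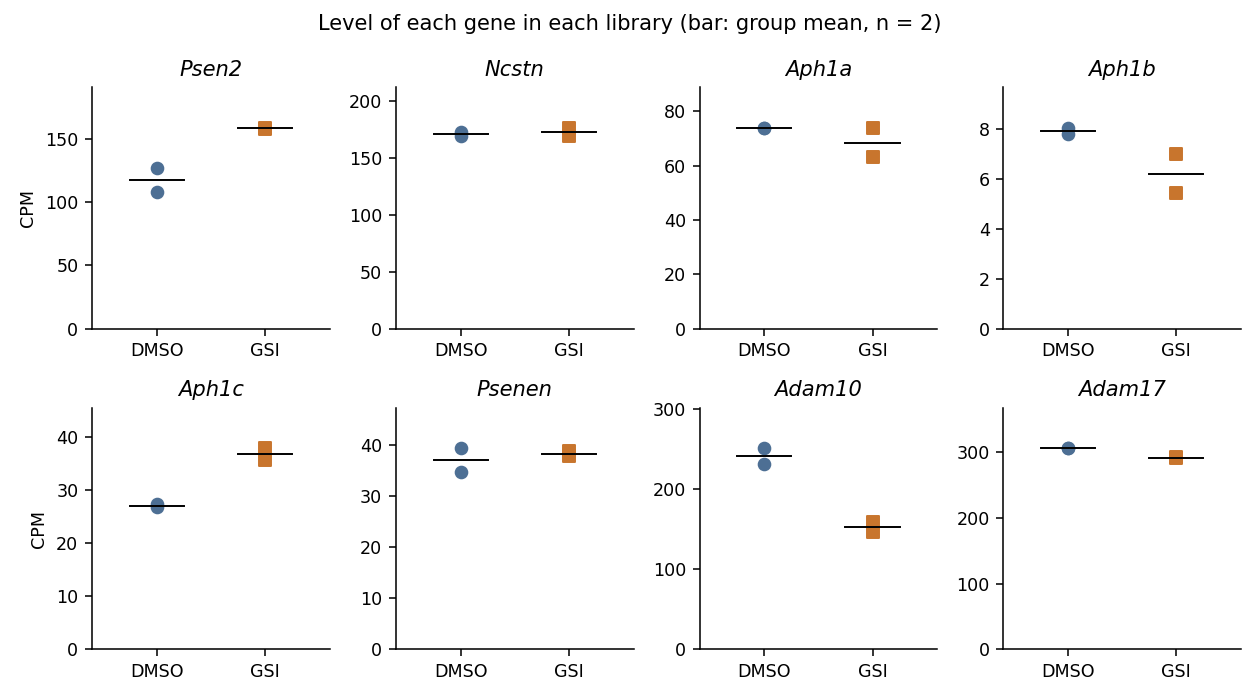
Level of each gene in CPM (y axes starting at 0) in the 2 DMSO libraries (circles) and the 2 GSI libraries (squares), with the group mean as a bar. Adam10 lies at 232 to 251 CPM with DMSO and 147 to 159 CPM with the GSI, and Psen2 and Aph1c lie higher in both GSI libraries.

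Psen2, on the minus strand of chromosome 1 (chr1:180227004-180263438, GRCm38), encodes a presenilin and so a catalytic subunit of the complex. Its level was 108 and 127 CPM with DMSO, against 158 and 159 CPM with the GSI. The groups did not overlap, and the DMSO libraries were spread more widely than the GSI libraries. The mean rose from 118 ± 12.98 CPM (SD, n = 2) to 159 ± 0.660 CPM, an increase of 34.8% by the fit (log2 fold change 0.43, SE 0.0770, 95% interval 0.27 to 0.59; edgeR FDR 0.000146). The increase was smallest without DMSO replicate 1, at a log2 fold change of 0.32, and largest without DMSO replicate 2, at 0.55, and it passed the threshold in both cases. No exon of Psen2 overlapped an exon on the other strand, and 0% of its windows of 75 bases occurred in another transcript.

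The gene for nicastrin had the smallest log2 fold change of the set. Ncstn (chr1:172066013-172082795, minus strand) was at 169 and 172 CPM with DMSO and 169 and 176 CPM with the GSI. The groups overlapped. The log2 fold change was 0.02 with a 95% interval of -0.12 to 0.16 (SE 0.0687, edgeR FDR 0.832), and it turned to -0.01 when GSI replicate 2 was left out.

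The 3 scaffold genes differed from each other in their response. Aph1a (chr3:95893969-95898288, plus strand) encodes the main form in these cells by level, and it was counted at 74.0 and 73.7 CPM with DMSO and at 63.2 and 73.7 CPM with the GSI. Only GSI replicate 1 stood below the others, and the log2 fold change of -0.11 did not pass the threshold (SE 0.0782, 95% interval -0.27 to 0.05, edgeR FDR 0.281). Without GSI replicate 2 it was -0.22 with an FDR of 0.0382, so the call depended on a single library.

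Aph1b (chr9:66775202-66795490, minus strand) was the weakest gene of the set. It was at 8.06 and 7.79 CPM with DMSO and 5.44 and 6.99 CPM with the GSI, which are 347, 442, 263 and 345 counts. The groups did not overlap, and GSI replicate 1 was the lowest library. The fit gave a decrease of 21.5% (log2 fold change -0.35, SE 0.123, 95% interval -0.61 to -0.09, edgeR FDR 0.0287). This call did not hold without DMSO replicate 1 (log2 fold change -0.33, FDR 0.0745), without GSI replicate 1 (log2 fold change -0.18, FDR 0.313) or with DESeq2 (adjusted p = 0.129).

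Aph1c (chr9:66814994-66834726, minus strand), the near copy of Aph1b, was higher with the GSI. It was at 26.8 and 27.3 CPM with DMSO and 35.6 and 37.9 CPM with the GSI. Both GSI libraries lay above both DMSO libraries, and the gap was much larger than the spread within either group. The increase was 35.8% (log2 fold change 0.44, SE 0.0773, 95% interval 0.28 to 0.60, edgeR FDR 0.000115), and the log2 fold change stayed between 0.40 and 0.48 when any 1 library was left out. The part of reads shared between the 2 copies in these opposite directions was not tested.

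Scaled by exon length, the 3 genes together were at 28.2 and 28.1 CPM per kb of exon with DMSO and 26.2 and 30.0 CPM per kb with the GSI, and these ranges overlapped. Within that sum the share of Aph1c was 18.3% and 18.7% with DMSO and 26.1% and 24.3% with the GSI, a mean difference of 6.72 percentage points. The share of Aph1a went from 76.2% and 76.0% to 69.9% and 71.2%, and that of Aph1b from 5.55% and 5.37% to 4.02% and 4.51%. For each of the 3 shares the groups did not overlap. The 2-sided exact permutation test gave p = 0.333 for each, which is the smallest value this test can give with 2 libraries against 2, so it cannot reach 0.05 here. The log2 ratio of Aph1c to Aph1b was 1.76 ± 0.0528 (SD, n = 2) with DMSO and 2.56 ± 0.193 with the GSI, with the same exact p of 0.333.

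**Figure D2:**
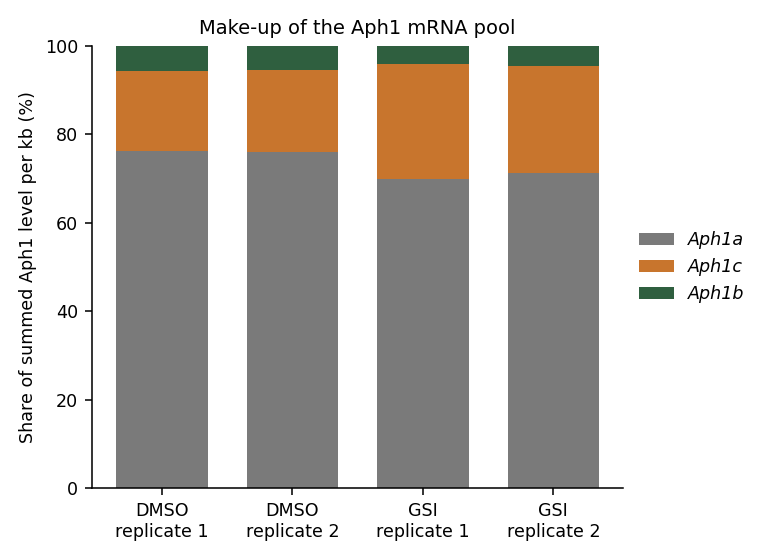
Share (%) of Aph1a, Aph1c and Aph1b in their summed level per kb of exon, as 1 stacked bar for each library. The Aph1c part takes 18.3% and 18.7% with DMSO and 26.1% and 24.3% with the GSI.

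The gene for PEN-2, Psenen (chr7:30561863-30563627, minus strand), was at 39.3 and 34.7 CPM with DMSO and 38.7 and 37.7 CPM with the GSI. Both GSI libraries lay within the range of the DMSO libraries. The log2 fold change was 0.05 (SE 0.0794, 95% interval -0.12 to 0.21, edgeR FDR 0.673) and changed sign to -0.05 without DMSO replicate 2. Its counts carry limits of their own: 36.6% of its windows of 75 bases also occurred in transcripts of Gm12396 or Gm20369. Gm12396 had 45 and 58 counts with DMSO and 48 and 57 with the GSI. Of the 1275 exon bases of Psenen, 119 overlapped U2af1l4 on the other strand. U2af1l4 had 901 and 1196 counts with DMSO and 1144 and 962 with the GSI.

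Across the 6 genes of the complex, the catalytic Psen2 and the scaffold Aph1c were therefore higher, Aph1b was lower by a call that single libraries decide, and Ncstn, Aph1a and Psenen did not pass the test. Overlap with exons on the other strand was small for the genes that changed: 0 bases for Psen2, Aph1b and Adam10 and 28 bases for Aph1c, whose partner Gm17098 had at most 2 counts in a library. It was 195 bases (4.91% of the exons) for Ncstn with Copa, 445 bases for Aph1a with Car14, which had at most 4 counts, and 311 bases for Adam17 with Iah1. Copa had 11252 and 15484 counts with DMSO and 11799 and 12001 with the GSI. For Iah1 the counts were 749 and 1047 with DMSO and 1227 and 1408 with the GSI. The strand setting of the counting is not given in the sources used here.

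The sheddase Adam10 had the largest change of the 8 genes. Adam10 (chr9:70678997-70780229, plus strand) encodes the metalloprotease that makes the first ligand-induced cut in Notch receptors and also sheds CD44 and CX3CL1. It was at 251 and 232 CPM with DMSO and at 147 and 159 CPM with the GSI, with counts of 10812, 13136, 7097 and 7862. The groups did not overlap and were separated by much more than the spread within either. The mean fell from 241 ± 14.0 CPM (SD, n = 2) to 153 ± 8.76 CPM, or by 36.6% in the fit (log2 fold change -0.66, SE 0.0733, 95% interval -0.81 to -0.50, edgeR FDR 4.58e-07). Leaving out any 1 library kept the log2 fold change between -0.72 and -0.60. Among all tested genes, 8.96% had a lower log2 fold change than Adam10.

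Adam17 (chr12:21323509-21373632, minus strand) was the most abundant gene of the set by CPM, and its change did not pass the test. It was at 306 and 307 CPM with DMSO and 291 and 293 CPM with the GSI. The groups did not overlap, because the replicates were very close to each other, but the difference was small. The log2 fold change was -0.07 (SE 0.0685, 95% interval -0.21 to 0.08, edgeR FDR 0.455) and stayed between -0.07 and -0.06 without any 1 library. The log2 ratio of Adam10 to Adam17, scaled by exon length, was 0.26 and 0.14 with DMSO and -0.45 and -0.34 with the GSI, a difference of -0.59 that depends neither on the length used nor on the scaling between libraries. The sign with DMSO does depend on the length: with that of the longest coding transcript the log2 ratio was -0.32 and -0.44, and with no length scaling it was -0.28 and -0.41. The exact permutation test again gave its smallest possible value, p = 0.333.

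**Figure D3:**
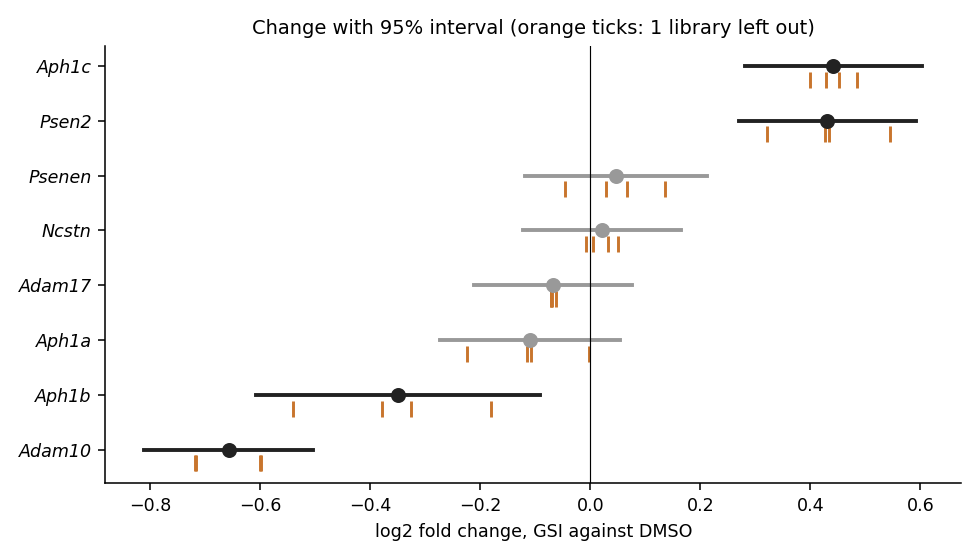
Log2 fold change of each gene, GSI against DMSO (x axis), with the 95% interval of the fit as a line, black where the FDR was under 0.05 and grey where it was not; the orange ticks are the values with 1 library left out. Adam10 at -0.66 and Psen2 and Aph1c at 0.43 and 0.44 stay on their side of 0 throughout, whereas the ticks of Ncstn and Psenen fall on both sides.

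Levels of different genes were compared per kb of exon. With DMSO the order of the means was Adam10 (49.1 CPM per kb), Ncstn (42.8), Adam17 (42.8), Psenen (29.0), Psen2 (27.1), Aph1a (21.4), Aph1c (5.20) and Aph1b (1.54 CPM per kb). With the GSI, Ncstn (43.5 CPM per kb) and Adam17 (40.9) were first, followed by Psen2 (36.6), Adam10 (31.1), Psenen (30.0), Aph1a (19.8), Aph1c (7.06) and Aph1b (1.203 CPM per kb). Adam10 thus moved from the first place to the fourth and Psen2 from the fifth to the third. With DMSO, Ncstn and Adam17 overlapped, as did Psenen and Psen2, and with the GSI, Adam10 and Psenen overlapped, so these neighbours did not differ beyond their spread. The order also depends on the length used, since with the length of the longest coding transcript Adam17 (68.6 CPM per kb) was first with DMSO and Psen2 (78.5 CPM per kb) was first with the GSI. The low place of Aph1c and Aph1b was the same on both scales.

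**Figure D4:**
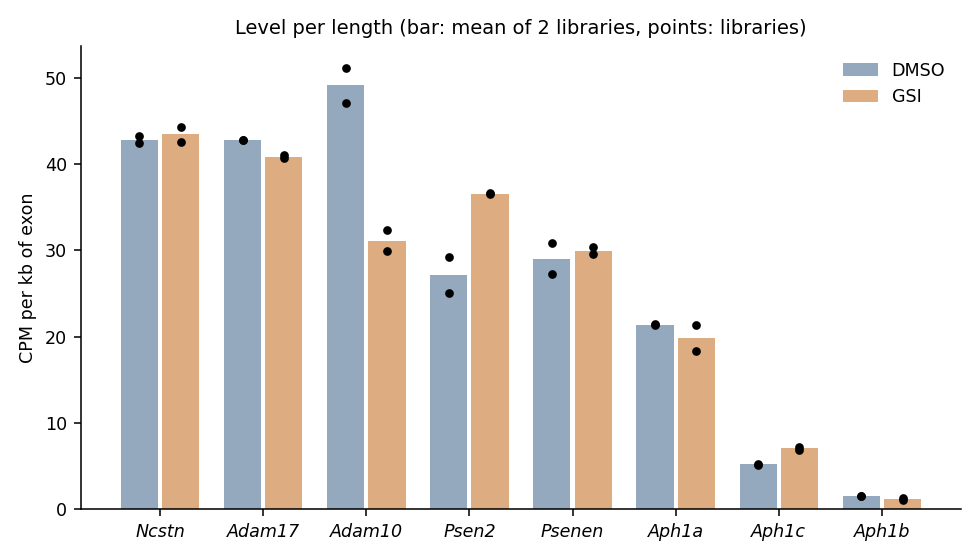
Level of each gene in CPM per kb of exon (y axis from 0), as the mean of the 2 DMSO libraries and of the 2 GSI libraries (bars) with each library as a point. Ncstn and Adam17 lie between 40.9 and 43.5 CPM per kb by their means, Adam10 falls from 49.1 to 31.1, and Aph1c and Aph1b are the lowest in both groups.

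Upstream sequences are shown for Adam10 and Psen2, the member that fell most and the catalytic member that rose. Each is the stretch of 250 bases before a RefSeq start site on GRCm38.p6, written 5′ to 3′ on the strand of the gene, and the capitals mark matches to the motifs searched on both strands.
Adam10 (chr9:70678732-70678981, plus strand): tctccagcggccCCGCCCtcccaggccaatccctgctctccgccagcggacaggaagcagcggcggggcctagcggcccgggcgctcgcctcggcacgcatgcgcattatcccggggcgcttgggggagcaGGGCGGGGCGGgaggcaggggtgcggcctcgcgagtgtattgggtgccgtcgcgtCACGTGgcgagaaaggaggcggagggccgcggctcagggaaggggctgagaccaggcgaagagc
Psen2, upstream start site (chr1:180256301-180256550, minus strand): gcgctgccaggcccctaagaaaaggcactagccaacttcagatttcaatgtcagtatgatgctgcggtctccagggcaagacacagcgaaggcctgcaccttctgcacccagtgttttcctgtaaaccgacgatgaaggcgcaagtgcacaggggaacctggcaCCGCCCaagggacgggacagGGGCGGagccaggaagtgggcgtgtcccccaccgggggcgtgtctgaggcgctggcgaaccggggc
The motifs were the RBPJ core TGGGAA, bound by the DNA-binding partner of Notch, an NF-κB site, the AP-1 site TGANTCA, the cyclic AMP element TGACGTCA, the stress-response element core TGATGNAA, the E-box CACGTG and the GC box GGGCGG. The Adam10 stretch held 1 E-box and 3 GC boxes, of which 2 overlap, and the Psen2 stretch held 2 GC boxes. Over the 10 upstream stretches of the 8 genes, the RBPJ core occurred in 2, at the second start site of Psen2 and the second start site of Psenen, against 21.6% of the 32851 RefSeq promoters cut in the same way. GC boxes occurred in 6, against 32.7%, with 6 matches upstream of Aph1c and 2 upstream of Aph1b, and E-boxes in 2, against 6.02%. The NF-κB, AP-1, cyclic AMP and stress elements, found in 3.90%, 6.75%, 1.55% and 3.45% of all promoters, had 0 matches, which says only that these letters are not in these windows.

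Genes for proteins that accompany the complex were called about as often as all tested genes. Of 9 tested genes for its trafficking and modulation, 2 were lower, 2 higher and 5 did not pass the test, beside 40.8% of all tested genes called, and the median log2 fold change was 0.01. Ifitm3, an antiviral membrane protein that also binds γ-secretase, rose by a log2 fold change of 0.50 (edgeR FDR 4.28e-05), and Tmed2, a cargo receptor of early secretory vesicles, by 0.34 (FDR 0.00180). Arrb2, a β-arrestin, had a log2 fold change of -0.44 and Hif1a, a transcription factor of the response to low oxygen, of -0.19. Among other aspartyl proteases of membranes, 5 of 7 genes were tested and 1 passed: Bace1, the β-secretase, with a log2 fold change of -1.30 on 29, 34, 15 and 10 counts, which was named after its values were seen because it lies under 1 CPM.

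For the sheddases, partners and relatives were counted separately. Of 12 tested genes for the maturation and inhibition of ADAM10 and ADAM17, 1 was lower and 11 did not pass the test (median log2 fold change -0.08), beside 21.9% of all tested genes lower and 19.0% higher. The gene that was lower was Tspan14, a tetraspanin that escorts ADAM10 to the cell surface, at 61.6 and 59.8 CPM with DMSO and 49.4 and 55.6 CPM with the GSI (log2 fold change -0.21, edgeR FDR 0.0347). Of 5 tested members among the other ADAM proteases, 3 were lower and 0 higher, with a median of -0.42, beside the same shares of 21.9% and 19.0%. Adam8, a leukocyte metalloprotease, was at 551 and 609 CPM with DMSO and 240 and 277 CPM with the GSI (log2 fold change -1.17), and Adam15 fell by 0.42 on the log2 scale.

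The substrates of both steps were more often lower than higher. Of 30 tested substrates of ADAM10 or ADAM17, 18 were lower and 5 higher, with a median log2 fold change of -0.49, and of 30 tested substrates of γ-secretase 18 were lower and 4 higher, with a median of -0.42. Over all tested genes 21.9% were lower and 19.0% higher, with a median of 0.01, so the counts of higher genes were near or below the background. Many of the lower genes stand in both lists: Notch1, Notch2, Jag1, Cd44, Lrp1, Trem2, Csf1r, Il1r2, Il6ra and Cx3cl1. The counts of the lists are therefore not independent, and the lists were not tested as sets. Cx3cl1, a chemokine anchored in the membrane, had a log2 fold change of -1.66, Jag2, a Notch ligand, of -1.74 and Areg, a ligand of the EGF receptor, of -1.47. Lrp8, a receptor for reelin, rose by a log2 fold change of 0.76, Mertk, a receptor for apoptotic cells, by 0.64 and Sdc1, a heparan sulfate proteoglycan, by 0.53. Of 7 Notch target genes 0 passed the filter on low counts: Hes1 had 5, 2, 1 and 5 counts. In every library 5 of the 7 had at most 3 counts, so no change of these targets could be judged from these data. By qPCR, the paper reports a significantly reduced hes1 level with the GSI in LPS/IC-activated BMMs.

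**Figure D5:**
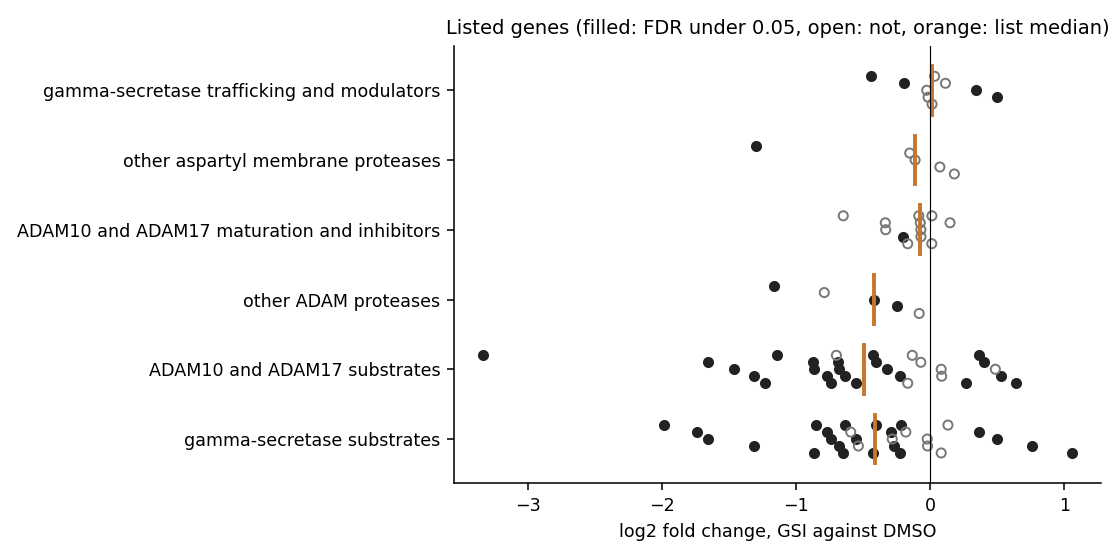
Log2 fold change, GSI against DMSO (x axis), of each tested gene in 6 fixed lists (rows), filled where the FDR was under 0.05 and open where it was not, with the list median in orange; the vertical placing within a row has no meaning. The medians lie at -0.49 and -0.42 for the substrate lists and at 0.01 for the genes of trafficking and modulation.

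The gene whose pattern over the 4 libraries was most like that of each member was found among genes of at least 10 CPM, by the root mean square difference of centred log2 CPM. For Adam10 it was Racgap1, a regulator of cell division (0.00821), for Psen2 Aldoa, a glycolytic enzyme (0.0106), for Aph1c Mvb12a (0.00413) and for Aph1b Fam189b (0.0250). For the members that did not pass the test it was Rab3gap1 for Ncstn (0.00605), Ripk3 for Aph1a (0.0113), Gm5431 for Psenen (0.00485) and Tbc1d15 for Adam17 (0.00610). With 4 libraries in 2 groups many genes can share a pattern closely, and the likeness is a description only.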

How the data were processed

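Poly(A) RNA of LPS/IC-activated BMMs was made by the authors into strand-specific libraries, trimmed with Trimmomatic, aligned with STAR (version 2.5.0a in the submitters' processing notes) to mm10 and counted per gene with HTSeq. The processing notes also list mm9. The deposited values are raw counts. The HTSeq mode and strand setting are not given in the sources used here. Columns were matched to samples by title. The 4 columns of a replicate, which the labels do not define, were taken as runs and summed, giving 16 columns in 4 libraries.

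The quasi-likelihood test (glmQLFit, then glmQLFTest) of edgeR 4.0.16 under R 4.3.3 was run after filterByExpr and TMM, with group as the factor and Benjamini-Hochberg adjustment over 13211 genes. An SE is the log2 fold change divided by the square root of F. CPM used TMM-adjusted library sizes. Exon lengths came from GENCODE M21, in which 98.8% of the 47069 IDs were found. Sequences were read from GENCODE M21 and RefSeq and aligned with biopython 1.88. The members and lists were chosen with earlier results of these data known. The text names all members, in each list the 2 largest decreases and increases at an FDR under 0.05 and at least 1 CPM, and each member's nearest gene. A gene that this rule gives is not reported here. The alternatives tried were other filters, DESeq2 1.42.0, RLE or unadjusted library sizes, the replicate block, the runs as samples, glmTreat and leaving out each library; lengths of longest transcripts were added after seeing the data. In simulated counts, 94% of 100 genes changed 1.5-fold were called, and 0.0701% of unchanged genes. The simulation gave all genes the same dispersion and changed only a few well-counted genes, in both directions. These rates therefore need not hold for the data.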

Additional observations from a re-analysis of the deposited data

How the results depend on the processing

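Adam10, Psen2 and Aph1c kept their direction and their call under all 12 alternatives, with log2 fold changes of -0.72 to -0.60, 0.32 to 0.55 and 0.40 to 0.48. Aph1b was lower in all of them but lost its call with DESeq2 (-0.35, adjusted p = 0.129), with glmTreat against 1.2-fold (-0.35, FDR 0.309) and without DMSO replicate 1 or GSI replicate 1; its values without 1 library ranged from -0.54 to -0.18. Such fits assume that the lone library left in a group varies like the other group. With the 16 runs as separate samples, which treats technical repeats as replicates, Aph1a (-0.11, FDR 0.0313) and Adam17 (-0.0647, FDR 0.00503) passed the threshold. Without 1 library Aph1a ranged from -0.22 to -0.00230, Ncstn from -0.0071 to 0.0506 and Psenen from -0.0453 to 0.136; the lowest values of Ncstn (without GSI replicate 2) and of Psenen (without DMSO replicate 2) reversed the sign of uncalled changes. The cause was not tested. The number of members called lower was 2, against 4 with the 16 runs, 1 with DESeq2, 1 with glmTreat, and 1 (without DMSO replicate 1 or GSI replicate 1) to 3 without 1 library. DESeq2 called 4063 genes in all, glmTreat 2446 and the 16 runs 7582, against 5392.

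With the replicate number as a block, 6444 genes were called and the same number of members (4), Adam10 at -0.66 and Aph1b at -0.35 (FDR 0.00302). Same-numbered libraries share only a number, and their deviations correlated at 0.155 over 13211 genes. The limit of low counts falls on Aph1b (263 to 442 counts) and on the Notch targets.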
